A study of Mus musculus with 12 samples.

Results

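Calmodulin, the calcium/calmodulin-dependent protein kinases (CaM kinases) and calcineurin were followed in the RNA of purified mouse brain myelin through 9 genes: Calm2, Calm3, Camk2a, Camk2b, Camk2d, Camk2g, Camk4, Ppp3ca and Ppp3r1. They were taken by symbol from a table of 21937 genes, and all 9 were listed there and passed the filter on low values. Myelin, the stack of membrane that oligodendrocytes wrap around axons, had been isolated as a light membrane fraction on sucrose gradients from brains of mice labelled WT. Of 12 RNA libraries, 3 each came from animals at P18 and P75 (postnatal days) and from adult mice of 6 and of 24 months. The study's methods name male c57Bl6/N animals as the source of the myelin, and its text gives separate brains for 6 months. At the other ages nothing says that the libraries are separate mice, so p-values measure the spread between libraries, which may be technical. The fraction is a preparation from whole brain, not a sorted cell type, and it carries no genetic change or treatment at any age.

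Calcium that enters a cell binds to calmodulin, a small protein whose loaded form switches on a set of enzymes. CaM kinase II is a holoenzyme of alpha, beta, gamma and delta subunits that can phosphorylate itself and stay active after calcium has fallen, and it is known above all from synapses. CaM kinase IV acts largely in the nucleus, and calcineurin is a phosphatase that acts against many of the same substrates once calmodulin and its own calcium-binding subunit are loaded.

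The values are normalized read counts, the reads counted on a gene divided by a size factor for the library, and they are not corrected for transcript length. A gene was called between 2 ages at an adjusted p under 0.1 in limma (moderated linear models on log2 of the normalized read count + 1, Benjamini-Hochberg over 14634 genes whose mean was 10 or more). With these settings more of the 9 genes fell than rose in each of 5 intervals, whereas quantile normalization gave 2 lower and 2 higher from P75 to 6 months. From P18 to P75, 4 of the 9 were lower (44.4%) and 1 was higher (11.1%), where 22.9% and 25.9% of all genes tested were lower and higher. From P75 to 6 months 3 were lower and 1 was higher, against 29.4% and 31.2% of all genes. From 6 to 24 months 4 were lower, against 12.7%, and 0 were higher, against 16.6%. Both directions together made up 29.3% of all genes in that interval, and this share ran from 16.9% to 36.4% with 1 library left out. It was more than 1.5 times lower without 6-month replicate 1 or 2 or 24-month replicate 1 or 2, where 3, 2, 2 and 1 of the 9 genes were called. From P75 to 24 months 4 were lower and 1 was higher, against 26.1% and 28.8%. Over the whole span from P18 to 24 months 7 of 9 (77.8%) were lower, against 34.3% of all genes, and 0 were higher, against 34.7%. Both counts of 0 were also 0 in edgeR, in DESeq2, and in limma at an unadjusted p under 0.05, but without P18 replicate 3 Camk2a was called higher from P18 to 24 months. These intervals share libraries at their common ages, so their counts do not add up as separate evidence.

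The libraries held 20299052 to 27214385 reads on genes, and 2671 to 75726 of these lay behind each value of the 9 genes. Mbp, the myelin basic protein gene, took 9.47% to 20.8% of the reads at P18 and 4.76% to 8.48% at the later ages, and the P18 library with the least Mbp was replicate 3. The 10 oligodendrocyte markers summed to 2467680 to 6181120 normalized read counts at P18 and to 1274210 to 2372100 later. Mbp is among them and made up most of these sums, with a mean of 3800540 at P18, so they largely repeat its share. From P18 to P75, 7 of the 10 were called lower (70%, against 22.9% of all genes) and 0 higher (against 25.9%). Markers of neurons were also present in every library, with a sum of 207357 to 265375 over 14 genes, and none of the 14 was at 0 anywhere. In bulk RNA of this kind, less material from a cell type and less RNA per cell cannot be told apart.

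**Figure D1:**
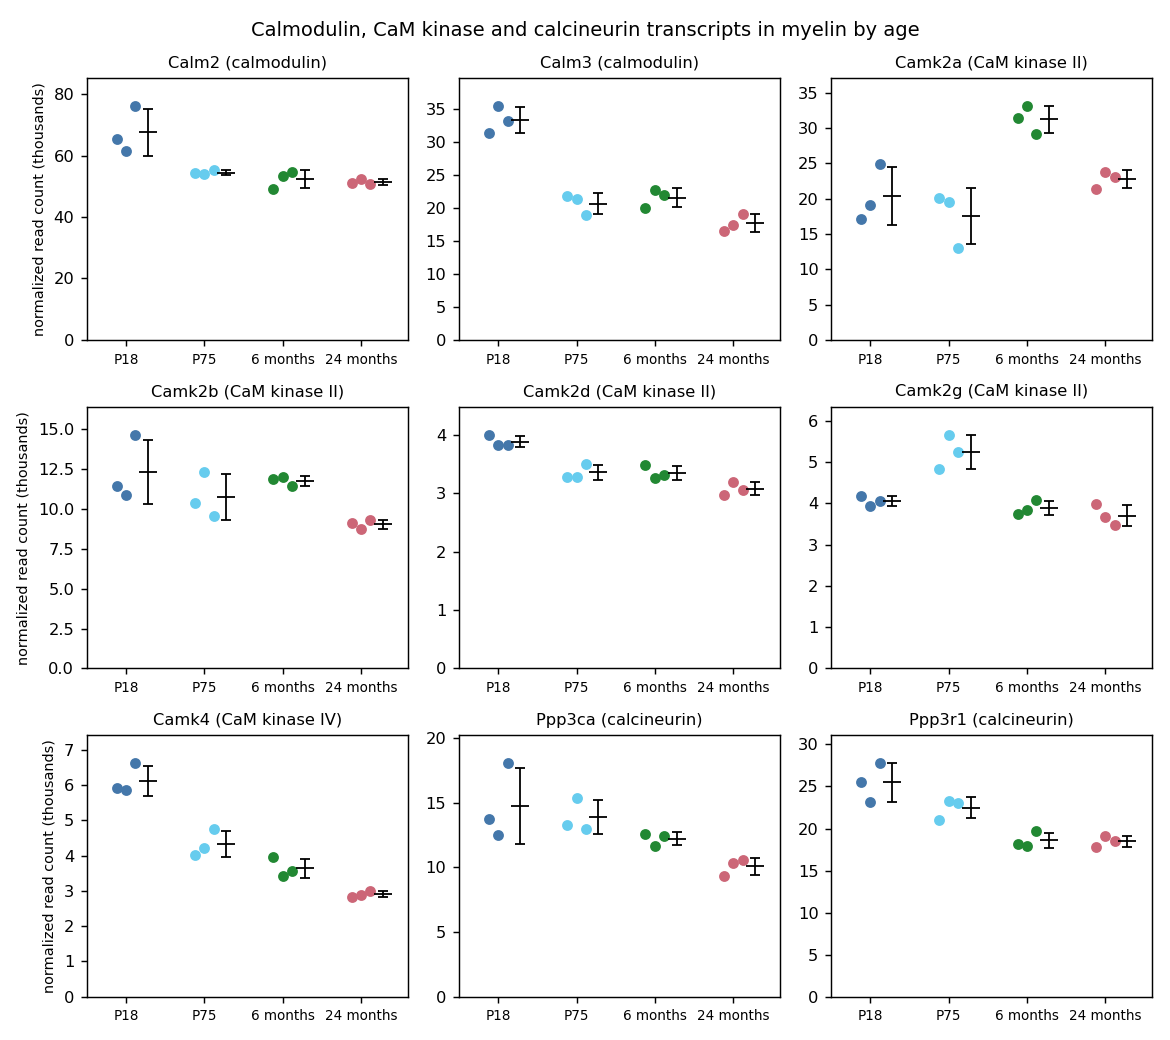
Normalized read counts (in units of 1000, linear axes from 0) of the 9 genes in the 12 myelin libraries by age, with each library as a point in the order of its replicate number and the mean ± SD (n = 3) beside it. Calm2, Calm3, Camk2d and Camk4 sit highest in the 3 P18 libraries, Camk2g in the 3 P75 libraries and Camk2a in the 3 libraries of 6 months.

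Calmodulin was followed through Calm2 and Calm3. Calm2 occupies bases 87832752 to 87846275 of chromosome 17 (minus strand) in the mouse assembly NCBIM37 (mm9) and has 5 merged exons. Calm3 occupies 17500728 to 17509463 of chromosome 7 (minus strand, 7 merged exons). The coding sequences of the pair differ at 78 of 450 bases, yet the 149 encoded residues hold 0 differences. Their transcripts share no run longer than 17 bases. The coding stretch for the first calcium-binding loop of 12 residues is shown as an example of how the bases differ although the loop is the same. Capitals mark the 7 of 36 bases that differ between the pair, and the sequences are read 5′ to 3′ on the coding strand from GENCODE vM1 transcripts. They lie in the third coding exon of each gene, at chr17:87835213-87835248 (minus strand) for Calm2 and chr7:17503016-17503051 (minus strand) for Calm3.
Calm2: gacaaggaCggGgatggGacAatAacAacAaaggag
Calm3: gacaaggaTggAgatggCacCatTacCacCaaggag

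Calm2 had the highest level per kilobase of exon of the 9 genes at each age. Its normalized read count was 65311, 61499 and 76062 in the 3 P18 libraries and 54315, 53899 and 55352 at P75. It was 49181, 53352 and 54578 at 6 months and 51015, 52580 and 50711 at 24 months. All P18 libraries lay above all later ones, and the ranges of P75, 6 months and 24 months were close, with P75 and 24 months not overlapping. Between P18 and 24 months Calm2 fell by 0.39 on the log2 scale (SE 0.14, limma adjusted p = 0.0206). Most of this lay between P18 and P75, a fall of 0.30 (SE 0.14, limma adjusted p = 0.0859). This call was lost when any of 9 libraries was left out, which were all but P18 replicate 2 and 6-month replicates 1 and 2, with an adjusted p up to 0.209. It was also lost under scaling to the same total (-0.18, limma adjusted p = 0.390). The same held with only the 2 ages compared (adjusted p = 0.182) and with no filter on low values (0.186).

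Calm3 fell further. It stood at 31278, 35316 and 33180 normalized read counts at P18 and at 21714, 21284 and 18840 at P75. Its values were 19994, 22671 and 21921 at 6 months and 16428, 17431 and 19071 at 24 months. The P18 libraries were all far above the rest, the P75 and 6-month ranges overlapped, and the 24-month libraries lay below those of 6 months. Calm3 fell by 0.69 on the log2 scale from P18 to P75 (SE 0.11, limma adjusted p = 0.000158) and by 0.92 from P18 to 24 months (limma adjusted p = 2.63e-06). The further step from 6 to 24 months, a fall of 0.29 (limma adjusted p = 0.0786), was lost when 6-month replicate 2 or 3 or 24-month replicate 1 or 2 was left out, with an adjusted p up to 0.241.

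Within a library the ratio of Calm2 to Calm3 was 1.74 to 2.29 at P18, 2.50 to 2.94 at P75, 2.35 to 2.49 at 6 months and 2.66 to 3.11 at 24 months. The ratio differed among the ages in an exact permutation test of F over 369600 arrangements of the libraries (p = 0.00162, adjusted p = 0.00604 over 6 ratios tested). A comparison of 3 libraries with 3 cannot give an exact two-sided p under 0.1, so single steps of a ratio are given as ranges only.

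CaM kinase II is assembled from the products of 4 genes. Camk2b occupies bases 5869647 to 5966365 of chromosome 11 (minus strand, 27 merged exons) and Camk2d 126299220 to 126547972 of chromosome 3 (plus strand, 24 merged exons). Camk2g occupies 21554097 to 21613310 of chromosome 14 (minus strand, 21 merged exons). In pairs among all 4 genes, Camk2a included, the coding sequences are 75.7% to 79.1% identical, with no shared transcript run over 32 bases. The encoded residues of these pairs are 84.3% to 87.7% identical. The stretch around the threonine whose autophosphorylation keeps the kinase active, residue 287 in these models, is shown for 3 of the genes to mark what the subunits share, with the threonine codon in capitals. It lies in the coding exon numbered 11 of each, at chr11:5888994-5889017 (minus strand) for Camk2b, chr3:126500644-126500667 (plus strand) for Camk2d and chr14:21579655-21579678 (minus strand) for Camk2g.
Camk2b: atgcacagacaggagACTgtggaa
Camk2d: atgcacaggcaggagACTgtagac
Camk2g: atgcatcgccaagagACGgtagag

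Camk2a, the alpha subunit and a transcript known from excitatory neurons of the forebrain, was the only one of the 9 with its peak at 6 months. The gene occupies bases 61085272 to 61147806 of chromosome 18 (plus strand, 20 merged exons). Its normalized read count was 17135, 19033 and 24905 at P18 and 20095, 19460 and 13044 at P75. It was 31433, 33039 and 29152 at 6 months and 21425, 23776 and 23118 at 24 months. The P18 and P75 libraries overlapped, the 6-month libraries lay above every other one, and the 24-month libraries lay above P75 but within the P18 range. Camk2a rose 1.81-fold from P75 to 6 months, by 0.86 on the log2 scale (SE 0.16, limma adjusted p = 0.000380). It then fell by 0.45 to 24 months (SE 0.16, limma adjusted p = 0.0599). That fall was lost when 6-month replicate 1 or 2 or any 24-month library was left out, with an adjusted p up to 0.166. The net rise from P75 to 24 months, 0.40 (limma adjusted p = 0.0533), was 0.20 (limma adjusted p = 0.294) without P75 replicate 3, whose value was the lowest, and was also lost without 24-month replicate 2 or 3 and under scaling to the same total (0.35, adjusted p = 0.107). From P18 to 24 months the difference was 0.18 (95% confidence interval -0.17 to 0.52). Without P18 replicate 3 it was 0.33 and called (limma adjusted p = 0.0664).

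Markers of forebrain excitatory neurons moved with Camk2a. Their sum over 8 genes was, in normalized read counts, 20006 to 27309 at P18, 18802 to 23104 at P75, 35034 to 35288 at 6 months and 28093 to 32058 at 24 months. The lowest sum was that of P75 replicate 3 and the highest P18 sum that of P18 replicate 3, the libraries that were lowest and highest in Camk2a at those ages. Of the 8 markers, 4 were higher and 3 lower at 6 months than at P75 (50% and 37.5%, against 31.2% and 29.4% of all genes). Over 14 general neuronal markers 9 were higher (64.3%) and 4 lower (28.6%). Their sum, 239784 to 265375 at P75, was lower at 6 months, with 223662 to 230967. Snap25 held the largest part of that sum and fell from 141430 ± 10020 to 88328 ± 1195, a larger drop than that of the sum. The lower sum therefore does not show a fall across the markers. The part of these markers in the rise of Camk2a was not tested.

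Camk2b, the beta subunit, which tethers the kinase to actin, followed a flatter course. It stood at 11415, 10899 and 14647 normalized read counts at P18 and 10346, 12323 and 9531 at P75. At 6 months it was at 11879, 12012 and 11419, and at 24 months at 9119, 8725 and 9288. The first 3 ages overlapped, and the 24-month libraries lay below all others. The steps from P18 to P75 and from P75 to 6 months were -0.19 (95% confidence interval -0.45 to 0.06) and 0.14 (-0.11 to 0.39) on the log2 scale. Camk2b fell by 0.38 from 6 to 24 months (SE 0.12, limma adjusted p = 0.0350), a call lost without 24-month replicate 2 (adjusted p = 0.116). From P18 to 24 months it fell by 0.43 (limma adjusted p = 0.00441).

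Camk2d and Camk2g, the delta and gamma subunits, are the widely expressed forms of the kinase. Camk2d had 4000, 3832 and 3826 normalized read counts at P18 and 3285, 3279 and 3509 at P75. It had 3487, 3253 and 3320 at 6 months and 2977, 3196 and 3056 at 24 months. The P18 libraries lay above all later ones, P75 and 6 months overlapped, and 24 months lay below both. Camk2d fell by 0.21 from P18 to P75 (SE 0.07, limma adjusted p = 0.0313), a call lost without P18 replicate 1 (adjusted p = 0.103) and under scaling to the same total. Its fall from P18 to 24 months was 0.34 (limma adjusted p = 0.000831). The step from P75 to 6 months was near 0, with a 95% confidence interval of -0.16 to 0.16.

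Camk2g was the only one of the 9 with its peak at P75. Its normalized read count was 4190, 3932 and 4061 at P18 and 4833, 5661 and 5247 at P75. It was 3741, 3837 and 4075 at 6 months and 3975, 3673 and 3467 at 24 months. The P75 libraries lay above all 9 others, which overlapped. Camk2g rose by 0.37 on the log2 scale from P18 to P75 (SE 0.09, limma adjusted p = 0.00264) and fell by 0.43 from P75 to 6 months (SE 0.09, limma adjusted p = 0.000503). Both steps rest on the same P75 libraries, as does its fall of 0.50 from P75 to 24 months (limma adjusted p = 0.000202). At 24 months it differed from P18 by -0.13 (95% confidence interval -0.31 to 0.05).

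The subunit mix differed among the ages. The ratio of Camk2a to Camk2b within a library was 1.501 to 1.75 at P18 and 1.37 to 1.94 at P75, against 2.55 to 2.75 at 6 months and 2.35 to 2.72 at 24 months. The older 6 libraries lay above the younger 6 without overlap, and the ratio differed among ages (exact permutation test of F, p = 0.005, adjusted p = 0.0075 over 6 ratios). The ratio of Camk2d to Camk2g was lowest at P75, with 0.643 ± 0.055 (SD, n = 3), against 0.957 ± 0.016 at P18, 0.865 ± 0.060 at 6 months and 0.834 ± 0.073 at 24 months (exact permutation test, p = 0.00201, adjusted p = 0.00604). The ratio of the alpha and beta transcripts to the delta and gamma transcripts went from 4.12 ± 0.80 (P18) through 3.29 ± 0.63 (P75) to 5.94 ± 0.44 (6 months) and 4.70 ± 0.29 (24 months) (exact permutation test, p = 0.00377, adjusted p = 0.0075). Per kilobase of merged exon, Camk2a supplied 52.6% ± 3.1 of the summed CaM kinase II level at P18 and 48.3% ± 5.4 at P75, but 64.4% ± 1.4 and 61.0% ± 1.9 at the older ages. Camk2g supplied 22.8% ± 3.4 at P75 and 12.4% ± 1.0 at 6 months. These shares depend on the length chosen. With the longest coding transcript in place of merged exons, Camk2a supplied 44.6%, 41.8%, 57.0% and 53.7%, and Camk2d 9.82% at P18 in place of 4.75%.

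**Figure D2:**
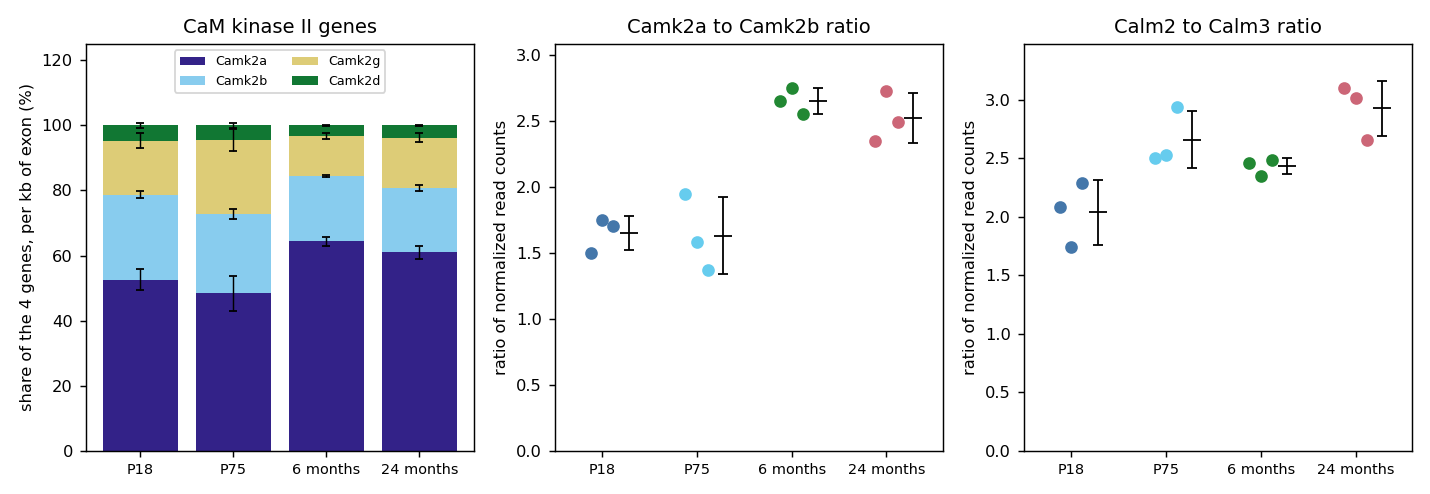
Left, share (%) of each gene in the summed CaM kinase II level per kilobase of merged exon, as stacked mean bars with SD (n = 3 libraries per age); middle and right, ratios of normalized read counts within each library (points) with mean ± SD. The Camk2a share is 48.3% at P75 and 64.4% at 6 months, and the Camk2a to Camk2b ratio is 2.35 or more in each library of 6 and 24 months and 1.94 or less in each earlier one.

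Camk4 encodes CaM kinase IV, which is known for phosphorylating nuclear targets such as CREB and for its high level in granule neurons of the cerebellum. The gene occupies bases 33098695 to 33355421 of chromosome 18 (plus strand, 12 merged exons). A long non-coding RNA gene on the other strand, 2310026I22Rik, shares 182 exon bases with it, and reads of the pair could be mixed there. Camk4 stood at 5903, 5851 and 6609 normalized read counts at P18 and at 4024, 4201 and 4754 at P75. It was at 3944, 3415 and 3557 at 6 months and at 2836, 2888 and 2996 at 24 months. The 4 ages formed a descending series with no overlap between neighbours. Camk4 fell by 0.50 on the log2 scale from P18 to P75 (SE 0.09, limma adjusted p = 0.000346), by 0.25 to 6 months (adjusted p = 0.0275) and by 0.32 to 24 months (adjusted p = 0.0210). The middle step was lost without P75 replicate 3 (adjusted p = 0.126) or 6-month replicate 2 (adjusted p = 0.107). Between P75 and 24 months it fell by 0.57 (adjusted p = 0.000106). The whole decline, 1.07 on the log2 scale, took the level 2.10-fold down (limma adjusted p = 3.52e-08), the deepest of the 9. The 8 markers of cerebellar granule neurons summed, in normalized read counts, to 16945 to 18211 at P18, 14955 to 15587 at P75, 14091 to 15155 at 6 months and 13893 to 14093 at 24 months. From P18 to 24 months 4 of these markers were lower and 4 higher (50% each, against 34.3% and 34.7% of all genes). Neurod1 held the largest part of the P18 sum and fell from 5353 ± 206 to 2627 ± 75.9 normalized read counts by 24 months. The lower sum therefore does not show a fall across the markers. The part of these markers in the fall of Camk4 was not tested.

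Calcineurin pairs a catalytic A subunit, which binds calmodulin, with a regulatory B subunit that binds calcium itself. Ppp3ca, the alpha form of the A subunit, occupies bases 136333088 to 136600691 of chromosome 3 (plus strand, 18 merged exons). Ppp3r1, the B subunit of most tissues, occupies 17059266 to 17100378 of chromosome 11 (plus strand, 6 merged exons). Wdr92, on the same strand, shares 462 exon bases with Ppp3r1, so reads in that stretch are uncertain for both. Ppp3ca had 13750, 12476 and 18047 normalized read counts at P18 and 13281, 15393 and 12997 at P75. It had 12615, 11632 and 12439 at 6 months and 9364, 10345 and 10580 at 24 months. P18 and P75 overlapped, with P18 replicate 3 the highest of all, and the ranges of P75, 6 months and 24 months followed each other downward without overlap. No consecutive step was called. Ppp3ca fell by 0.46 from P75 to 24 months (SE 0.13, limma adjusted p = 0.00704) and by 0.53 from P18 to 24 months (limma adjusted p = 0.00147).

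Ppp3r1 fell earlier. Its normalized read count was 25493, 23190 and 27738 at P18 and 21005, 23269 and 23070 at P75. It was 18179, 17927 and 19645 at 6 months and 17819, 19148 and 18470 at 24 months. P18 and P75 overlapped, as did 6 and 24 months, and the older 6 libraries lay below the younger 6. Ppp3r1 fell by 0.27 on the log2 scale from P75 to 6 months (SE 0.11, limma adjusted p = 0.0413), a call lost without P75 replicate 2 (adjusted p = 0.113) or 6-month replicate 2 (0.110), under scaling to the same total (-0.28, adjusted p = 0.100006) and under quantile normalization (-0.07, adjusted p = 0.652). Under quantile normalization the fall was placed before P75 instead, at 0.48 (adjusted p = 0.00587), and from P18 to 24 months it was called under both (0.46, limma adjusted p = 0.00132). From 6 to 24 months the difference was -0.01 (95% confidence interval -0.23 to 0.22). The fall from P75 to 24 months, 0.28 (limma adjusted p = 0.0414), was lost without P75 replicate 2 or 24-month replicate 1 and under quantile normalization (adjusted p = 0.391).

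The ratio of Ppp3ca to Ppp3r1 within a library was 0.538 to 0.651 at P18, 0.563 to 0.662 at P75, 0.633 to 0.694 at 6 months and 0.525 to 0.573 at 24 months. The ratio passed the threshold of 0.1 among ages only narrowly (exact permutation test, p = 0.0829, adjusted p = 0.0986 over 6 ratios). Ppp3cb, the beta form of the A subunit, stood at 10439 ± 576 (SD, n = 3) at P18 and 6813 ± 172 at 24 months. The ratio of Ppp3ca to Ppp3cb was 1.27 to 1.65 at P18, 1.48 to 1.76 at P75, 1.61 to 1.86 at 6 months and 1.41 to 1.55 at 24 months (exact permutation test, p = 0.0986, adjusted p = 0.0986). Neither stayed below 0.1 on ranks, where the exact permutation p was 0.179 and 0.136, or when any of 10 libraries was left out, all but P18 replicate 3 and P75 replicate 3.

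**Figure D3:**
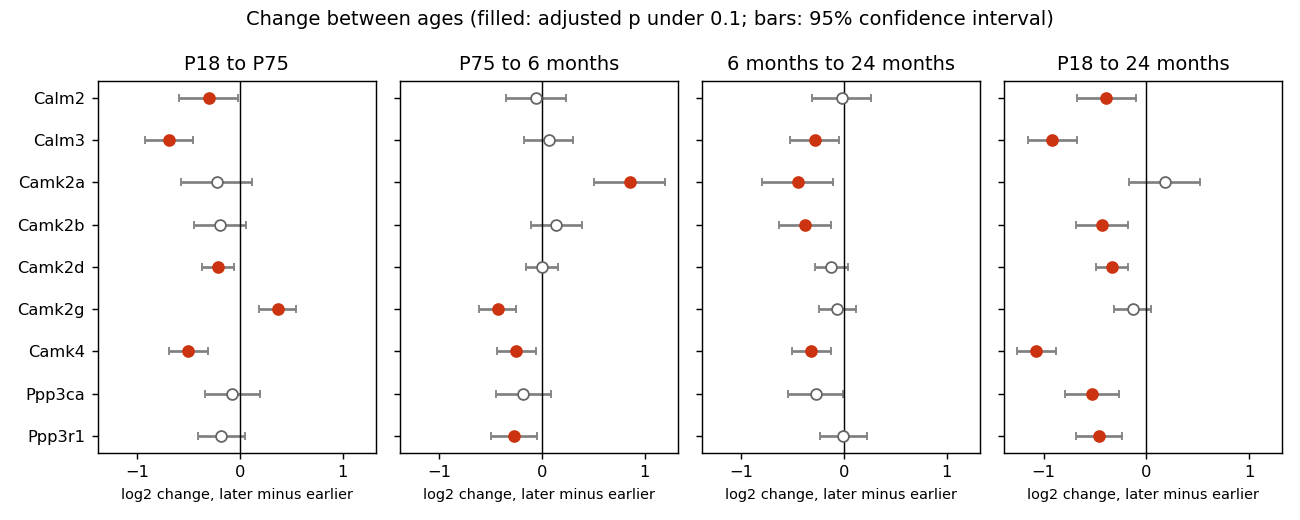
Log2 change (later minus earlier age, limma) of each of the 9 genes over the 3 consecutive intervals and from P18 to 24 months, with 95% confidence intervals and filled points at adjusted p under 0.1. Camk2a from P75 to 6 months (0.86) is the largest rise, Camk4 from P18 to 24 months (-1.07) is the largest fall, and the consecutive steps of most genes are under 0.5 in size.

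Set side by side per kilobase of merged exon, the 9 genes spanned more than 2 orders of magnitude. At 6 months the mean level per kilobase was 35699 for Calm2, 8885 for Calm3, 5757 for Ppp3r1, 4181 for Camk2a and 2219 for Ppp3ca. It was 1290 for Camk2b, 805 for Camk2g, 292 for Camk4 and 209 for Camk2d. Among 20939 genes with a length, Calm2 had rank 5 (P18), 15 (P75), 7 (6 months) and 13 (24 months). The order was the same at all ages but for the place of Camk2a and Ppp3ca, whose libraries overlapped at P18 and P75, and Camk2b and Camk2g overlapped at P75. With the longest coding transcript as the length, Camk2d came out above Camk4 at every age, and Camk2b above Ppp3ca at 6 and 24 months.

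The choice of scale moved the calls most between P18 and P75, the interval in which the share of Mbp differed most. Scaling every library to the same total moved the median log2 change of all genes in that interval from 0.02 to 0.14, and the share of all calls that were falls from 47.0% to 27.8%. Of the 9 genes, 2 were then called lower and 1 higher, and under quantile normalization 6 were lower and 1 higher. From P75 to 6 months 2 were lower and 1 higher under the same total, where the fall of Ppp3r1 was lost. Under quantile normalization 2 were lower and 2 higher in that interval, with the fall of Ppp3r1 lost and a rise of Calm3 called (0.23, limma adjusted p = 0.0932). From P75 to 24 months 5 were lower and 0 higher under the same total, and 3 lower and 1 higher under quantile normalization. From 6 to 24 months the share of falls among all calls went from 43.2% to 53.7% under the same total, and 4 of the 9 were lower and 0 higher under all 3 scalings. From P18 to 24 months quantile normalization moved the median of all genes from -0.01 to -0.11, and the 7 falls were called under each scaling.

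The wider pathway was read from 54 other genes in 5 lists, of which 53 could be tested. The exception, Ppp3r2, a B subunit known from testis, had a mean of 3.09 to 3.49 normalized read counts at the 4 ages. From P18 to P75, 23 of the 53 were lower (43.4%) and 8 higher (15.09%), with a median log2 change of -0.19 where that of all genes was 0.02. From P75 to 6 months 16 were lower and 22 higher (41.51%), and from 6 to 24 months 16 were lower (30.19%) and 2 higher (3.77%). The background shares of all genes are those given above for the same intervals, and they are also the measure for the 5 lists below. A count near them is not a result about a list.

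**Figure D4:**
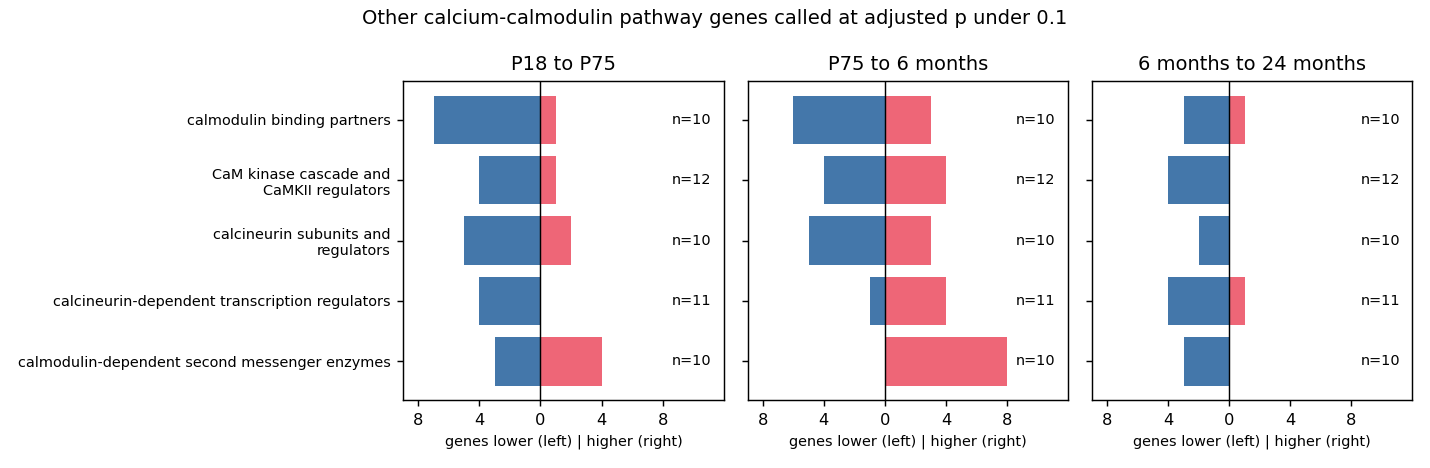
Number of genes lower (left, blue) and higher (right, red) at the later age in 5 lists of calcium and calmodulin pathway genes, for the 3 consecutive intervals (limma, adjusted p under 0.1), with the number tested as n. The second messenger enzymes stand out from P75 to 6 months with 8 higher and 0 lower of 10, and the binding partners from P18 to P75 with 7 lower of 10.

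The list of calmodulin binding partners held 10 genes, among them the calmodulin-like gene Calml4 and the transcription activators Camta1 and Camta2. Of the 10, 7 were lower and 1 higher from P18 to P75, 6 lower and 3 higher to 6 months, and 3 lower and 1 higher to 24 months. Marcksl1, a membrane-bound actin regulator, fell by 2.38 on the log2 scale from P18 to P75 (limma adjusted p = 2.46e-11), from 11962 ± 412 to 2301 ± 64.3 normalized read counts (SD, n = 3). Nrgn, neurogranin, which stores calmodulin in dendrites, fell by 1.03 (adjusted p = 0.000123), from 25875 ± 6467 to 12520 ± 1575. Pcp4, a small calmodulin regulator of Purkinje and other neurons, fell by 1.002 from P75 to 6 months (limma adjusted p = 3.67e-06), from 22466 ± 1387 to 11247 ± 1252.

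The list for the CaM kinase cascade and CaM kinase II regulation held 12 genes, among them Eef2k, Dapk1 and Mylk, which belong to neither. Of the 12, 4 were lower and 1 higher from P18 to P75, 4 and 4 from P75 to 6 months, and 4 and 0 from 6 to 24 months. The middle counts, 33.3% each way, were near the 29.4% and 31.2% of all genes. Camkv, a kinase-like protein that binds calmodulin without catalysing, rose by 1.06 from P75 to 6 months (limma adjusted p = 1.7e-07), from 2300 ± 181 to 4795 ± 65.5 normalized read counts, and fell by 0.36 to 24 months. Both steps had the direction of those of Camk2a. The inhibitors of CaM kinase II went the other way over the same interval, and they are named here after their values were seen. Camk2n1 fell by 0.59 (limma adjusted p = 0.000978), from 43899 ± 3175 to 29331 ± 3143, and Camk2n2 fell by 0.47 (adjusted p = 0.000477), from 3184 ± 78.4 to 2319 ± 304. Camkk2, a kinase that activates CaM kinase IV, was also named after its values were seen. It was lower at each later age, from 3351 ± 149 at P18 to 1687 ± 93.5 at 24 months. Camkk1, in the same list, went the other way. It rose by 0.41 from P18 to P75 (limma adjusted p = 0.00108), from 1397 ± 94.0 to 1857 ± 149, and stood at 1844 ± 102 at 24 months.

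Of 10 tested calcineurin subunits and regulators, 5 were lower and 2 higher from P18 to P75, 5 and 3 from P75 to 6 months, and 2 and 0 from 6 to 24 months. None reached a change of 1 on the log2 scale in a consecutive step. Of 11 transcription regulators that calcineurin or the CaM kinases act on, 4 were lower and 0 higher in the first interval, 1 and 4 in the second, and 4 and 1 in the third. Mef2a and Mef2d, transcription factors of neurons and muscle, rose from P75 to 6 months by 1.30 and 1.59 on the log2 scale (limma adjusted p = 7.72e-06 and 7.22e-07) and fell to 24 months by 0.78 and 0.70. Nfatc4, a calcineurin target, fell by 1.004 from P18 to P75 (adjusted p = 0.0431) at a level of only 16.5 ± 2.5 against 7.84 ± 2.20 normalized read counts.

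Of 10 second messenger enzymes and calcium release channels tied to calmodulin, 3 were lower and 4 higher from P18 to P75, 0 and 8 from P75 to 6 months, and 3 and 0 from 6 to 24 months. Itpr1, the inositol trisphosphate receptor that releases stored calcium, rose by 1.20 from P18 to P75 (limma adjusted p = 2.71e-06), from 3701 ± 598 to 8453 ± 712 normalized read counts. It rose by a further 0.68 to 6 months, to 13550 ± 1747. Nos1, neuronal nitric oxide synthase, rose by 1.79 from P75 to 6 months (limma adjusted p = 0.000421), though only from 12.5 ± 7.3 to 42.3 ± 13.2 normalized read counts.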

How the data were processed

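The deposited signal is the normalized read count of each gene in 12 myelin libraries. According to the submitters' processing notes, the authors aligned reads to mm9 with TopHat2 2.0.8 (the study's methods name a later version), handled them with SAMtools 0.1.19, counted them on genes with HTSeq 0.5.4p1 and scaled the counts with size factors of DESeq. Multi-mapped and ambiguous reads were dealt with before deposit and could not be varied. Values between 50 and 500 came out as whole multiples of 1 read (tolerance 0.01), so reads were recovered. The precision of a value is set by 3 libraries per age.

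Ages were compared with limma 3.58.1 (trend, empirical Bayes) in R 4.3.3 on log2(normalized read count + 1), so fold changes are on that scale, with 1 fit over all 12 libraries. Ratios within a library were tested by exact permutation in Python 3.11.15 with numpy 2.4.6, pandas 2.3.3 and scipy 1.17.1, and figures drawn with matplotlib 3.10.9. edgeR 4.0.16 and DESeq2 1.42.0 on the recovered reads were alternatives, as were pseudocounts, filters, scalings, thresholds, a replicate block and leaving out each library. The scripts were tested on simulated data. Gene positions, lengths and coding sequences came from GENCODE vM1 on NCBIM37, where 95.5% of the symbols matched 1 gene.

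The 9 genes, the pathway lists and the marker lists (neuronal, forebrain excitatory, cerebellar granule, oligodendrocyte, astrocyte, microglial, endothelial) were chosen with earlier results of these data known. Named besides the 9 were pathway genes called with a log2 change of at least 1 in a consecutive step, and the gene most alike to each of the 9. The longest coding transcript as the length was an alternative chosen after seeing the data. Between P75 and 6 months, deviations from the group means correlated weakly (0.161, 0.101 and 0.187 for replicate numbers 1, 2 and 3), and the block changed no call there. Between the other ages compared, these correlations ran from -0.213 to 0.029. Nothing in the labels says that a number marks a shared litter, day or batch, so pairing is not shown at any age.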

Additional observations from a re-analysis of the deposited data

How the results depend on the processing

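Of the 5 counts of calls among the 9 genes, those with a fold of 1.5 or more numbered 1, 1 and 0 in the 3 consecutive intervals, 0 from P75 to 24 months and 2 over the whole span. Of the pathway genes 15, 13 and 2 passed that fold in the consecutive steps. At an adjusted p under 0.05, 2 of the 9 were called from 6 to 24 months, and scaling to the same total left 3 from P18 to P75. Leaving out 1 library gave 3 to 5, 2 to 4 and 1 to 5 calls in the consecutive intervals, 4 to 7 from P75 to 24 months and 7 to 8 over the whole span. The lowest counts came without P18 replicate 1, 6-month replicate 2 and 24-month replicate 2. The replicate block gave 4, 4, 3, 5 and 7 calls in these intervals, where age alone gave 5, 4, 4, 5 and 7. Under the block Calm2 from P18 to P75 (limma adjusted p = 0.115) and Calm3 from 6 to 24 months (0.102) were lost. Replicate numbers are not shown to pair the mice.

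Changes near 0 turned sign: Ppp3ca from P18 to P75 was 0.0518 under the same total, and in edgeR Camk2d from P75 to 6 months was 4e-04 and Ppp3r1 from 6 to 24 months 0.0064. With 1 library left out Ppp3ca from P18 to P75 ran from -0.186 to 0.0806 and Camk2d from P75 to 6 months from -0.0302 to 0.0304. From 6 to 24 months Calm2 ran from -0.0694 to 0.0057 and Ppp3r1 from -0.0336 to 0.0331. The ratio of Ppp3ca to Ppp3r1 had an exact permutation p of 0.179 on ranks, 0.151 with the replicate block and 0.0162 to 0.194 with 1 library left out. That of Ppp3ca to Ppp3cb had 0.136, 0.175 and 0.0111 to 0.200. The other 4 ratios kept p under 0.1 in every setting run. The causes were not tested. The calls of Camk2a and Camk2g from P75 to 6 months, of Camk2g, Calm3 and Camk4 from P18 to P75, and the 7 falls from P18 to 24 months held in every setting except the fold of 1.5, which kept Calm3 from P18 to P75, Camk2a from P75 to 6 months, and Calm3 and Camk4 from P18 to 24 months. With 3 libraries per age, a change that was not called is not shown to be absent. The confidence intervals given above show which sizes the data leave possible.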

Other observations

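For each of the 9 genes, the gene whose profile over the 12 libraries was most like it was sought among 11296 genes with a mean of at least 100, by Pearson's r of log2(normalized read count + 1). These are descriptions over libraries that share age groups and size factors. The most alike were Rab12 for Calm2 (r = 0.972), Nat15 for Calm3 (0.990), Spnb3 for Camk2a (0.974), Sec31a for Camk2b (0.962) and 4931406P16Rik for Camk2d (0.972). They were Rps6kl1 for Camk2g (0.945), Rab3c for Camk4 (0.981), Clasp1 for Ppp3ca (0.969) and Psma5 for Ppp3r1 (0.987). Camk2g had the lowest of these values.

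Markers of the other cell types of the brain gave these sums of normalized read counts. Over 10 astrocyte markers the sum was 53279 to 73665 at P18, 60861 to 70554 at P75, 71843 to 82254 at 6 months and 68580 to 77478 at 24 months. Over 10 microglial markers it was 4197 to 4721 at P18, 5211 to 5635 at P75, 6525 to 7673 at 6 months and 9032 to 11159 at 24 months. Over 8 endothelial markers it was 623 to 747 at P18, 665 to 831 at P75, 582 to 699 at 6 months and 647 to 677 at 24 months. No marker of any list was at 0 in any library.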
